A study of Mus musculus with 6 samples.

Results

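The genes described here are 42 genes that mark or act in endothelial cells, the cells that line blood and lymphatic vessels. They were chosen by name, and each was followed on the probe sets whose only platform gene symbol was that name. The 42 genes had 80 probe sets, and each gene was represented by its brightest one, the probe set with the highest mean over the 6 arrays. In all, 18193 genes were represented this way, and 12732 of them, including 41 of the 42, lay above the level filter and were tested.

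RNA came from caudal arteries, the main arteries of the tail, of 4-week-old mice. The 3 control samples were Notch3+/+ and the other 3 were Notch3-/-, which lack the Notch3 receptor. Neither group carried a further allele or treatment in the labels, which do not describe how Notch3 was inactivated. Each sample was a pool of arteries, from 4, 3 and 3 mice in Notch3+/+ replicates 1 to 3 and from 4 mice in every Notch3-/- replicate. The whole vessel was used, so endothelial RNA was mixed with that of smooth muscle, adventitia and cells around the artery. A lower value can reflect fewer endothelial cells or less RNA per endothelial cell, and these cannot be told apart here.

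Endothelial cells are held together by junction proteins and carry receptor tyrosine kinases that respond to vascular endothelial growth factors and angiopoietins, ligands often made by neighbouring cells. Their identity depends on ETS, SOX and basic helix-loop-helix transcription factors. Arterial endothelium is marked by Sox17 and Bmx, venous endothelium by Nr2f2, and lymphatic endothelium by Prox1, its master regulator, with Flt4 and Pdpn. Notch3 itself acts mainly in smooth muscle cells and pericytes.

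The 6 arrays correlated at r between 0.978 and 0.994 across the 27027 probe sets tested, which are not independent replicates. Notch3-/- replicate 2 stood apart, at 39.5 on the first principal component against -17.1 to 5.85 for the other arrays, and the values of Pecam1, Fli1, Vegfc, Sox17 and Clec14a are given with and without it. All levels given here are the deposited log2 values, and a change or difference is Notch3-/- minus Notch3+/+ in log2 units, with its 95% interval in parentheses. The brighter Notch3 probe set lay between 9.94 and 10.09 in the Notch3+/+ pools and between 5.87 and 6.51 in the pools labelled Notch3-/-. Among all genes tested, 41 of 12732 passed the adjusted p of 0.05 in limma.

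No endothelial gene passed the test across all genes. In limma with Benjamini-Hochberg adjustment, 0 of 41 passed on the brightest probe set, beside 0.322% of all genes tested, and 0 of the 72 probe sets tested for these genes passed. The smallest adjusted p was 0.0759, for Pdpn, a mucin-type membrane glycoprotein of lymphatic endothelium and of several other cells. At an unadjusted p under 0.05, 8 of 41 (19.5%) read higher in Notch3-/- arteries, beside 7.1% of all genes, and 3 of 41 (7.32%) read lower, beside 4.81% of all genes. The 8 were Pdpn, Mmrn1, Vegfa, Vegfc, Angpt2, Vcam1, Thbd and Fli1, and the 3 were Pecam1, Esam and Egfl7. Without Notch3-/- replicate 2 the counts were 6 (beside 5.76% of all genes), with Thbd and Fli1 lost, and 2 (beside 3.99%), with Esam lost. Without Notch3+/+ replicate 3 they were 3 (Pdpn, Vegfc and Vcam1) and 0, beside 4.23% and 2.71% of all genes. Without Notch3+/+ replicate 2 the same 3 genes read higher and 2 lower, beside 4.61% and 2.85%. Without Notch3+/+ replicate 1 they were 11 and 4, beside 6.98% and 5.15%. Without Notch3-/- replicate 1 they were 6 and 2, beside 7.91% and 5.78%, and without Notch3-/- replicate 3 they were 5 and 2, beside 6% and 4.04%. Pdpn, Vegfc and Vcam1 were in all 6 of these sets.

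For 11 of the 41 genes the values of one genotype all lay on one side of the other's. Higher in every Notch3-/- pool were 6 genes (14.6%, beside 9.46% of all genes tested): Tek, Pdpn, Vegfa, Vegfc, Angpt2 and Vcam1. Lower in every Notch3-/- pool were 5 genes (12.2%, beside 7.88%): Pecam1, Esam, Egfl7, Clec14a and Sox18. Clec14a is counted on its brighter probe set only, since its other one was higher in every Notch3-/- pool. All 5 are general endothelial genes, and of the 6 higher genes Tek is the general one. A difference between the roles was not tested. By role, the median change (Notch3-/- minus Notch3+/+, in log2 units) was -0.05 for 26 general endothelial genes, 0.14 for 3 arterial, 0.05 for 3 venous, 0.36 for 4 lymphatic genes with Prox1 included, 0.27 for 3 ligands and 0.58 for 3 adhesion molecules of activated endothelium. The median over the 18193 genes was -0.02, and over the 12732 genes tested it was 0.00.

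**Figure D1:**
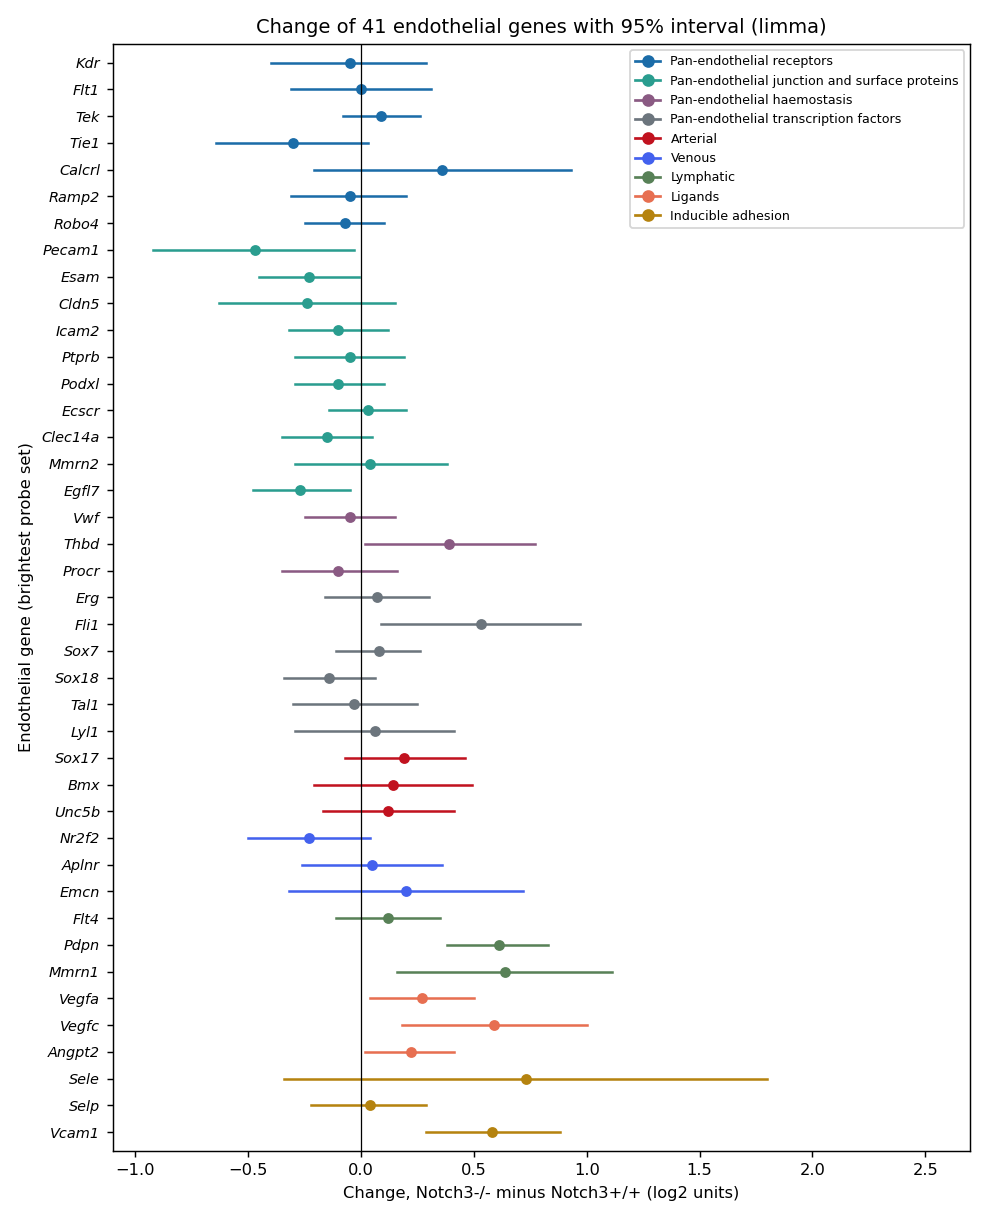
Change of the 41 tested endothelial genes, Notch3-/- minus Notch3+/+, in log2 units on the horizontal axis, with one row per gene and the 95% interval of limma as a line; colours give the role. The intervals of Pecam1, Esam and Egfl7 lie below 0, and those of Thbd, Fli1, Pdpn, Mmrn1, Vegfa, Vegfc, Angpt2 and Vcam1 lie above it, before any adjustment for the number of genes.

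The promoter sequences below lie before annotated gene starts, and which start was used in these arteries was not tested. RefSeq entries on GRCm38.p6 were matched for 25 of the 42 genes, with 32 start sites. Below are the 250 bases before the start, 5′ to 3′ on the gene's strand. They are given for 2 genes among the highest changes (Pdpn and Vegfc) and 2 among the lowest (Egfl7 and Tie1). The changes were already known when these genes were picked. Having an entry does not explain the choice, since Sele (0.73) and Mmrn1 (0.64) had higher changes and also have entries. Their windows are not printed. Capitals mark the ETS motif, AGGAAG or CGGAAG on either strand, the core bound by factors such as Erg and Fli1. The windows are chr4:143299565-143299814, minus strand, for Pdpn; chr8:54077282-54077531, plus strand, for Vegfc; chr2:26580833-26581082, plus strand, for the most upstream of 3 Egfl7 starts; and chr4:118489850-118490099, minus strand, for Tie1.
Pdpn: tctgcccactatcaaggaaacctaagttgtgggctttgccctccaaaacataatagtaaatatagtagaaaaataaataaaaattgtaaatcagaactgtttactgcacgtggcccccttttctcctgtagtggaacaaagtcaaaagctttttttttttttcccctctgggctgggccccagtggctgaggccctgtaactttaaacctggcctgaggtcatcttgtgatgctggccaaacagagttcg
Vegfc: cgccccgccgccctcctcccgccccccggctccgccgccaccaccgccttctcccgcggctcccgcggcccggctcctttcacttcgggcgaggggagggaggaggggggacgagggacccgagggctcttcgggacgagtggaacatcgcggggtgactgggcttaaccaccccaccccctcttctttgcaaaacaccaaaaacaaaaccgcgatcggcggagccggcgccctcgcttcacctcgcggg
Egfl7: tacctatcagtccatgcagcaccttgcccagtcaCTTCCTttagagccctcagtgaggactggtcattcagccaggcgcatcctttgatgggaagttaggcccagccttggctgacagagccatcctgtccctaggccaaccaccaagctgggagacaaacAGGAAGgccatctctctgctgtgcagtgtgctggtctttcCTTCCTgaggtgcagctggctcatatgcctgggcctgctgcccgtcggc
Tie1: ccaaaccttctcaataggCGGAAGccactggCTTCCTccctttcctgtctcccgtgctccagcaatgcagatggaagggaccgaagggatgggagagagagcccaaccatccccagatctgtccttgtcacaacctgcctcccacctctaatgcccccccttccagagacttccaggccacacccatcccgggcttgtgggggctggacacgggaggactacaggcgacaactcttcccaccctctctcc

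The motif occurred 3 times in the Egfl7 window and 2 times in the Tie1 window, and its letters were in neither the Pdpn nor the Vegfc window. Over the 32 windows of these genes, 13 (40.6%) held it, beside 39.2% of all 32851 windows in the table. Sele, with the highest change of the 42 genes (0.73), had a window that held it, and Mmrn1 (0.64) had none. Calcrl and Emcn, with positive changes, had a window that held it, as did Nr2f2, Procr and Robo4, with negative changes. The printed windows alone therefore give no contrast between higher and lower genes. The motif bound by RBPJ, the DNA-binding partner of Notch receptors, was searched as TGGGAA on both strands. It was in 11 of the 32 (34.4%) beside 21.6% of all windows. The printed Egfl7 and Tie1 windows held it, as did windows of Kdr, Tal1 and Prox1, also with negative changes. Windows of Bmx, Erg, Mmrn1, Sele and Vegfa, with positive changes, held it too. SOX motifs, ACAATG or ACAAAG on both strands, were in 8 of the 32 (25%) beside 25.2% of all windows, and 1 lay in the Pdpn window. A match describes the letters and does not show that a factor binds there.

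Of the 7 receptor genes, none passed, and the changes ran from -0.30 for Tie1 to 0.36 for Calcrl. Kdr encodes the main signalling receptor for Vegfa. It read 6.98, 6.50 and 6.50 in Notch3+/+ replicates 1 to 3 and 6.76, 6.48 and 6.58 in Notch3-/- replicates 1 to 3, a change of -0.05 (95% interval -0.40 to 0.29, adjusted p = 0.911). The pools overlapped, with Notch3+/+ replicate 1 the highest. Flt1, a receptor that binds Vegfa with high affinity and limits its signalling, read 7.13 ± 0.18 and 7.13 ± 0.21 (SD, n = 3 each), a change of 0.00 (-0.31 to 0.31), and its 4 probe sets differed by 0.00 to 0.15.

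Tek and Tie1 form the receptor pair of the angiopoietin system. Tek, the receptor itself, read 8.95, 8.94 and 8.92 in Notch3+/+ and 8.97, 9.08 and 9.03 in Notch3-/- pools. All Notch3-/- pools lay above all Notch3+/+ pools, by a change of 0.09 (-0.08 to 0.26, adjusted p = 0.661). Tie1, the orphan partner of Tek, read 7.98, 8.16 and 8.49 against 8.06, 7.75 and 7.91, a change of -0.30 (-0.64 to 0.03, adjusted p = 0.485). Its pools overlapped, with Notch3+/+ replicate 3 the highest, and without that pool the change was -0.16. The adrenomedullin receptor is built from Calcrl and its partner Ramp2, which had a difference of 0.36 (-0.21 to 0.93) and -0.05 (-0.31 to 0.20). That of Calcrl was 0.66 without Notch3+/+ replicate 1 and 0.14 without Notch3+/+ replicate 3. On its other tested probe set it was 0.08 (-0.77 to 0.93). Robo4, a receptor that stabilises vessels, had a difference of -0.07 (-0.25 to 0.10).

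Of 10 junction and surface genes, all tested, 8 had a negative change, beside 6290 of the 12732 genes tested, and the median was -0.12. Lower without overlap were 4 of the 10, beside 7.88% of all genes tested. The 8 include Clec14a, whose probe sets disagree, and Podxl, which was at 0.02 with the mean of its probe sets. No test was made over the group. Pecam1, the adhesion molecule CD31 of endothelial contacts that is also found on platelets and leukocytes, had the lowest change of all 42 genes. It read 10.08, 10.21 and 10.33 in Notch3+/+ replicates 1 to 3 and 9.99, 9.27 and 9.94 in Notch3-/- replicates 1 to 3. Every Notch3-/- pool was below every Notch3+/+ pool, and Notch3-/- replicate 2 was far below the rest. The change was -0.47 with an SE of 0.19, which is 1.39-fold lower (adjusted p = 0.416). Without Notch3-/- replicate 2 it was -0.24 (adjusted p = 0.493).

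Esam, an adhesion molecule of endothelial tight junctions and platelets, read 9.59, 9.55 and 9.79 in Notch3+/+ and 9.51, 9.36 and 9.37 in Notch3-/- pools. The gap between the nearest pools was small, and the change was -0.23 (SE 0.09, adjusted p = 0.423). Egfl7, a protein that endothelial cells secrete into their matrix, read 9.07, 9.12 and 9.28 against 8.81, 8.87 and 8.99, a change of -0.27 (SE 0.09, adjusted p = 0.355). The pools did not overlap, and all 4 Egfl7 probe sets were negative, between -0.27 and -0.14.

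Clec14a, a C-type lectin of endothelial surfaces, gave opposite readings on its 2 probe sets. The brighter one read 8.85, 8.80 and 8.81 in Notch3+/+ and 8.79, 8.55 and 8.68 in Notch3-/- pools, a change of -0.15 (-0.35 to 0.05), or -0.09 without Notch3-/- replicate 2. The other read 6.49, 6.47 and 6.35 against 6.67, 7.03 and 6.67, a change of 0.35 (0.08 to 0.62). On each probe set the genotypes did not overlap, but in opposite directions, so no direction can be given for the gene. Claudin 5 (Cldn5), the tight junction protein, had a difference of -0.24 (-0.63 to 0.15), Icam2 -0.10 (-0.32 to 0.12), the phosphatase gene Ptprb -0.05 (-0.29 to 0.19) and the sialomucin gene Podxl -0.10 (-0.29 to 0.10). The dimmer Ptprb probe sets differed by -0.18 (-0.45 to 0.09) and -0.24 (-0.47 to -0.01), the last without overlap of the pools. Ecscr, a small endothelial surface protein, had a difference of 0.03 (-0.14 to 0.20), and Mmrn2, a matrix ligand of Clec14a, had a difference of 0.04 (-0.29 to 0.38).

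Of the haemostasis genes, Thbd stood highest. It encodes thrombomodulin, which turns thrombin towards anticoagulation. Thbd read 9.73, 9.39 and 9.07 in Notch3+/+ and 9.72, 9.90 and 9.75 in Notch3-/- pools, a change of 0.39 (SE 0.16, adjusted p = 0.419). Notch3+/+ replicate 1 lay among the Notch3-/- pools, and without Notch3+/+ replicate 3 the change was 0.23. Vwf, the platelet-binding factor stored in endothelial granules, read 10.20 ± 0.05 and 10.15 ± 0.12 (SD, n = 3 each), a change of -0.05 (-0.25 to 0.15). Procr, the receptor of protein C, had a difference of -0.10 (-0.35 to 0.16).

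The 6 transcription factors of endothelial identity had changes from -0.14 to 0.53. Fli1, an ETS factor of endothelium and blood cells, read 7.34, 7.03 and 7.02 in Notch3+/+ and 7.29, 8.04 and 7.64 in Notch3-/- pools. Its change was 0.53 (SE 0.19, adjusted p = 0.372), with Notch3-/- replicate 1 inside the Notch3+/+ range and replicate 2 the highest. Without Notch3-/- replicate 2 it was 0.33, and on the second Fli1 probe set it was 0.04 (-0.17 to 0.25). The related factor Erg had a difference of 0.07 (-0.16 to 0.30). The SOX factors Sox7 and Sox18 had a difference of 0.08 (-0.11 to 0.26) and -0.14 (-0.34 to 0.06). The helix-loop-helix factors Tal1 and Lyl1, shared with blood cell precursors, had a difference of -0.03 (-0.30 to 0.25) and 0.06 (-0.29 to 0.41).

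**Figure D2:**
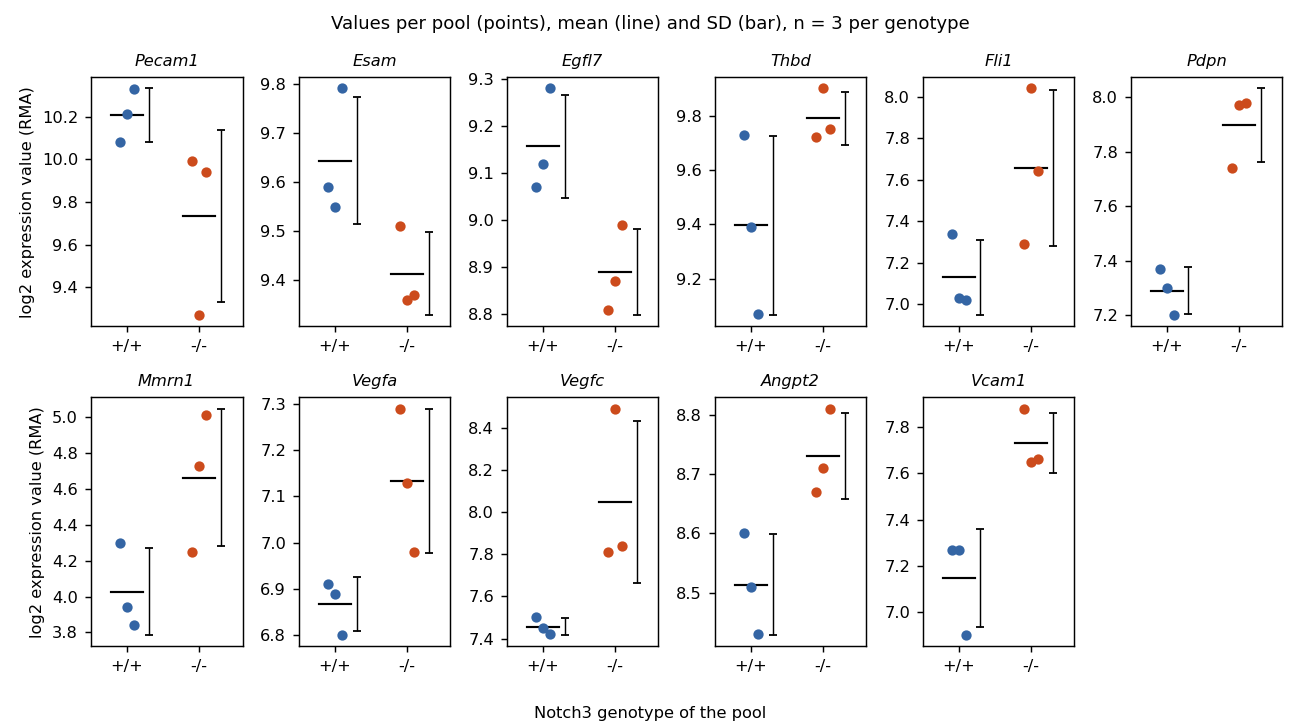
RMA log2 expression values (vertical axis, its own scale in each panel) of the 11 endothelial genes with an unadjusted p under 0.05, by Notch3 genotype; points are pools, lines are means and bars are SD (n = 3). The pools overlap for Thbd, Fli1 and Mmrn1 and do not overlap for the other 8 genes.

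Among the markers of vessel type, the 3 arterial genes had positive changes and none passed. The sign rested on single pools for Bmx, at -0.03 without Notch3+/+ replicate 1, and Unc5b, at -0.01 without Notch3-/- replicate 1. The arterial median was 0.09 without Notch3-/- replicate 2. Sox17, an arterial SOX factor, read 9.06, 8.99 and 9.03 in Notch3+/+ and 9.22, 9.43 and 9.01 in Notch3-/- pools, a change of 0.19 (-0.07 to 0.46), with the pools overlapping. Without Notch3-/- replicate 2, its highest pool, the change was 0.09. Its second probe set had a difference of -0.09 (-0.38 to 0.20). Bmx, a non-receptor tyrosine kinase of arterial endothelium, had a difference of 0.14 (-0.21 to 0.49), and Unc5b, a netrin receptor, had a difference of 0.12 (-0.17 to 0.41).

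Of the venous genes, Nr2f2, which encodes COUP-TFII and holds venous identity, was negative and the other 2 were positive. Nr2f2 read 8.79, 9.03 and 9.18 in Notch3+/+ and 8.85, 8.67 and 8.79 in Notch3-/- pools, a change of -0.23 (-0.50 to 0.04, adjusted p = 0.503). The pools overlapped through Notch3+/+ replicate 1, and without Notch3+/+ replicate 3 the change was -0.14. Of its 6 probe sets 5 were negative, from -0.44 to -0.07, and 1 had a difference of 0.02. Aplnr, the apelin receptor, had a difference of 0.05 (-0.26 to 0.36) and Emcn, the sialomucin endomucin of veins and capillaries, had a difference of 0.20 (-0.32 to 0.72).

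Pdpn read 7.37, 7.30 and 7.20 in Notch3+/+ replicates 1 to 3 and 7.74, 7.97 and 7.98 in Notch3-/- replicates 1 to 3. The genotypes were well separated. The change was 0.61 with an SE of 0.10, which is 1.52-fold (adjusted p = 0.0759 in limma). Mmrn1, multimerin 1 of lymphatic endothelium and platelets, read 4.30, 3.94 and 3.84 against 4.25, 4.73 and 5.01, a change of 0.64 (SE 0.20, adjusted p = 0.328). These values lay near the filter level of 3.83, and Notch3-/- replicate 1 lay inside the Notch3+/+ range. Flt4, the receptor of Vegfc, had a difference of 0.12 (-0.11 to 0.35), and its other probe set had a difference of -0.01.

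Prox1, the defining lymphatic factor, was below the filter on all 3 of its probe sets. Its brightest read 2.10, 2.23 and 2.10 in Notch3+/+ and 2.04, 2.11 and 2.10 in Notch3-/- pools, and it was not tested. Lyve1, a hyaluronan receptor of lymphatic endothelium and of some macrophages that was not among the 42, read 0.76 higher (adjusted p = 0.247), without overlap of the pools. Pdpn is also made by fibroblasts and Mmrn1 by platelets. Markers of fibroblasts, macrophages and platelets are given with the marker lists, and their part in these readings was not tested.

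All 3 ligands read higher in every Notch3-/- pool on their brightest probe set, beside 9.46% of all genes tested. Vegfc, the main lymphatic growth factor, read 7.50, 7.45 and 7.42 in Notch3+/+ and 7.81, 8.49 and 7.84 in Notch3-/- pools. Its change was 0.59 with an SE of 0.18, which is 1.51-fold (adjusted p = 0.297). Without Notch3-/- replicate 2, the highest pool, it was 0.37 (adjusted p = 0.209). The other 2 Vegfc probe sets differed by 0.33 and 0.35, and the pools did not overlap on any of the 3.

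Vegfa, the main blood vessel growth factor, read 6.91, 6.89 and 6.80 in Notch3+/+ and 7.29, 7.13 and 6.98 in Notch3-/- pools, a change of 0.27 (SE 0.10, adjusted p = 0.385). Its second probe set had a difference of 0.15 (-0.20 to 0.49), with overlap. Angpt2, an angiopoietin that endothelial cells store and release and that often opposes Tek signalling, read 8.60, 8.51 and 8.43 against 8.67, 8.71 and 8.81. Its change was small, 0.22 (SE 0.08, adjusted p = 0.401), and the highest Notch3+/+ pool was close to the lowest Notch3-/- pool.

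The last 3 genes are adhesion molecules that activated endothelium shows to leukocytes. Vcam1, which smooth muscle cells can also make, read 7.27, 7.27 and 6.90 in Notch3+/+ and 7.88, 7.65 and 7.66 in Notch3-/- pools. The genotypes did not overlap, and the change was 0.58 with an SE of 0.13, which is 1.5-fold (adjusted p = 0.177). The other Vcam1 probe sets differed by 0.41 (0.19 to 0.62) and 0.31 (-0.01 to 0.62). Sele, the selectin that cytokines induce, read 5.17, 3.56 and 3.65 against 5.53, 4.49 and 4.56, a change of 0.73 (-0.34 to 1.80). It was 1.25 without Notch3+/+ replicate 1 and 0.40 without Notch3-/- replicate 1. Its residual SD of 0.76 was at percentile 99.9 of all genes tested, and 1 Notch3+/+ pool was above 2 of the Notch3-/- pools. Selp, a selectin stored in endothelial and platelet granules, had a difference of 0.04 (-0.22 to 0.29).

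Notch3+/+ replicate 3 was the highest of the 6 pools for 14 of the 42 genes, ties included, among them Tie1, Pecam1, Esam, Cldn5, Egfl7 and Nr2f2. It was also the lowest for 12, among them Calcrl, Thbd, Fli1, Emcn, Pdpn, Mmrn1, Vcam1 and all 3 ligands. Notch3-/- replicate 2 was the highest for 11 genes, such as Fli1, Vegfc, Thbd and Sox17, and the lowest for 7, such as Pecam1, Tie1, Kdr and Nr2f2. The median deviation of the 26 general genes from their own means lay between 0.00 and 0.07 in Notch3+/+ and between -0.05 and 0.01 in Notch3-/- pools. The residual SD had a median of 0.151 over the 41 tested genes and 0.119 over all genes tested. It was large for Calcrl (0.39) and Emcn (0.35) and small for Ecscr (0.04), Tek (0.04) and Robo4 (0.05).

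**Figure D3:**
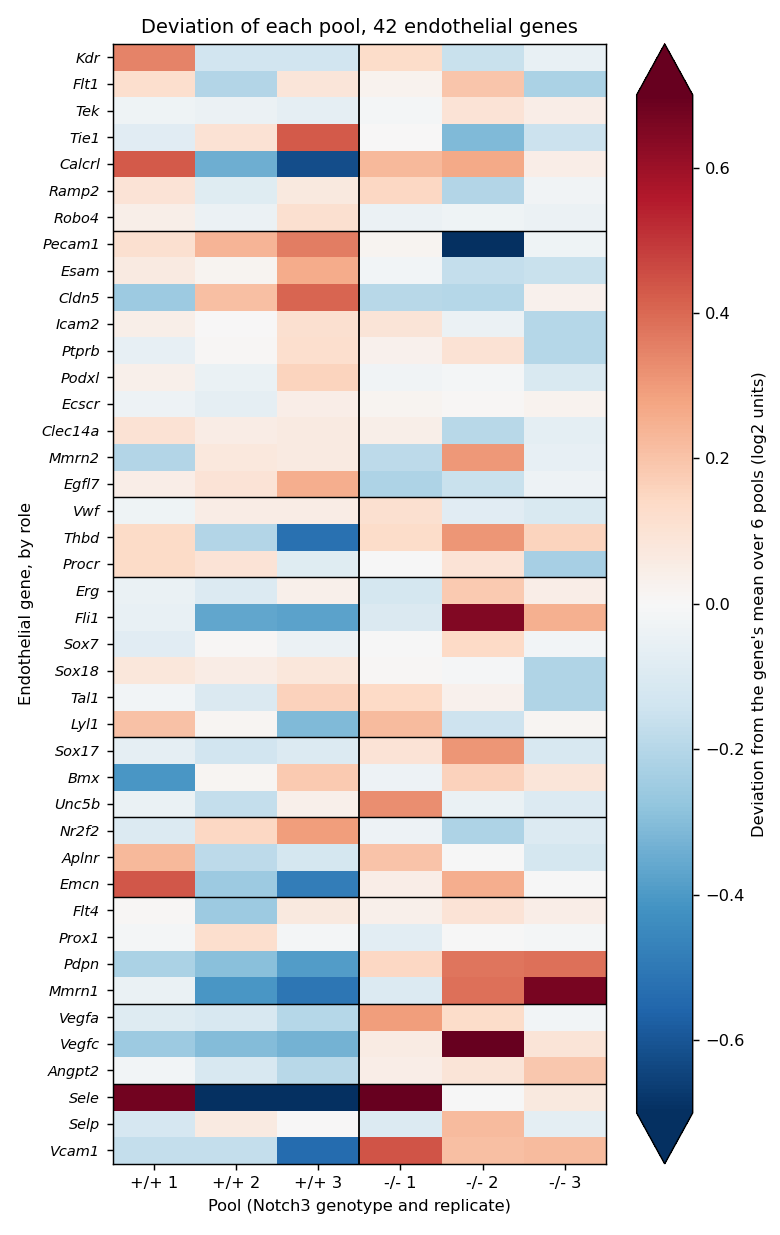
Deviation of each of the 6 pools (columns) from the gene's mean over the pools, in log2 units by colour, for the 42 endothelial genes (rows, grouped by role). Red and blue fields mix within the general endothelial genes, while Pdpn, Vegfc, Angpt2 and Vcam1 are blue in all Notch3+/+ and red in all Notch3-/- pools.

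Several genes were read by more than 1 probe set above the filter. Of 18 such genes, the sign differed between probe sets for 8, namely Podxl, Clec14a, Mmrn2, Sox17, Nr2f2, Aplnr, Flt4 and Selp. The probe sets of Vegfc, Vcam1, Vegfa and Fli1 were all positive, and those of Egfl7 and Ptprb all negative. For 23 genes, Pecam1, Esam, Pdpn and Thbd among them, 1 probe set was all there was above the filter.

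**Figure D4:**
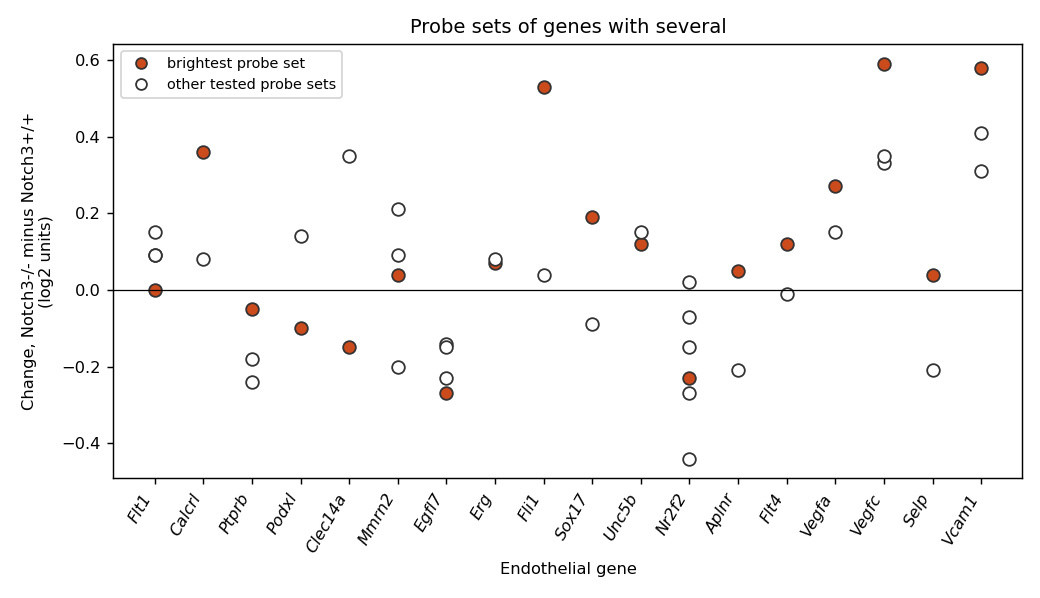
Change on each tested probe set, in log2 units, for the 18 endothelial genes with more than 1; filled points are the brightest probe set. The probe sets of Clec14a and Nr2f2 lie on both sides of 0, those of Vegfc and Vcam1 above it and those of Egfl7 below it.

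Of 40 other endothelial genes tested, not among the 42, 0 passed in limma. At an unadjusted p under 0.05, 6 read higher and 4 lower, beside 7.1% and 4.81% of all genes, and the median change was -0.02. Nos3, the endothelial nitric oxide synthase, had a difference of -0.47 (adjusted p = 0.240) and the arterial connexin gene Gja4 had a difference of -0.51 (adjusted p = 0.230). Adgrl4, an adhesion G-protein-coupled receptor of endothelium, had a difference of 0.45 (adjusted p = 0.221). Of 16 further genes of the growth factor and angiopoietin pathways, 0 passed. At an unadjusted p under 0.05, 4 of the 16 were higher and 3 lower, beside the same 7.1% and 4.81% of all genes. Placental growth factor (Pgf), which binds Flt1, had a difference of -0.73 (adjusted p = 0.0949), opposite in sign to Vegfa and Vegfc. The angiopoietin gene Angpt4 and Angpt1, the main activating ligand of Tek, had a difference of -0.96 (adjusted p = 0.181) and -0.28 (adjusted p = 0.298), opposite in sign to Angpt2. Nrp2, a co-receptor for Vegfc, had a difference of 0.44 (adjusted p = 0.114).

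Marker lists of the cells that a dissected artery can hold were summed per pool as antilog values. The sum of 8 endothelial markers, 7 of them among the 42, lay between 3825 and 4180 in Notch3+/+ and between 3149 and 3594 in Notch3-/- pools. Notch3-/- replicate 2 was the lowest, and replicates 1 and 3 of that genotype were at 3594 and 3529. This list holds Pecam1, Esam, Egfl7 and Tie1, whose lower values are described above, and is no separate evidence. By gene 6 of the 8 had a negative change and 2, Tek and Emcn, a positive one. The sum of the 40 other endothelial genes lay between 12544 and 13870 in Notch3+/+ and between 12951 and 14015 in Notch3-/- pools. These ranges overlapped. Bright genes weigh most in such a sum, and by gene 18 of the 40 had a positive change and 22 a negative one. The sum of 5 lymphatic markers, 4 of them among the 42, was 304 to 386 against 487 to 566. The lymphatic list holds Pdpn, Mmrn1 and Lyve1, whose higher values are described above, and is no separate evidence either. Its other genes were Flt4, at 0.12 with overlap of the pools, and Prox1, at -0.06 and below the filter. The ranges of the lymphatic list and of the 8 endothelial markers did not overlap between genotypes. Smooth muscle markers ranged from 22992 to 26459 and from 24903 to 25254. Markers of macrophages and leukocytes ranged from 1594 to 2652 and from 2500 to 3352, with all 10 positive. All 7 mast cell markers were positive, with sums of 827 to 1794 and 1456 to 2488. Of 7 fibroblast markers 6 were positive, with sums of 24591 to 26345 and 25383 to 27979, and Dpt rose by 0.58 (adjusted p = 0.0499). At an unadjusted p under 0.05 in limma, 5 of the 10 macrophage and leukocyte markers read higher. So did 4 of the 7 mast cell and 3 of the 7 fibroblast markers, beside 7.1% of all genes tested.

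Platelets or leukocytes also express Pecam1, Fli1, Selp and Mmrn1. The sums of 8 platelet markers lay between 406 and 538 in Notch3+/+ and between 529 and 608 in Notch3-/- pools, with 3 positive and 5 negative and with Gp5 and Gp6 below the filter. The sums of 4 erythroid markers were 160 to 219 and 174 to 298, with Hba-a1 below the filter. Adipocyte (3817 to 4698 and 3925 to 4596), skeletal muscle (632 to 778 and 408 to 969) and Schwann cell sums (1318 to 1793 and 1267 to 1827) overlapped between genotypes. The part of other cells in the values of the endothelial genes was not tested.

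**Figure D5:**
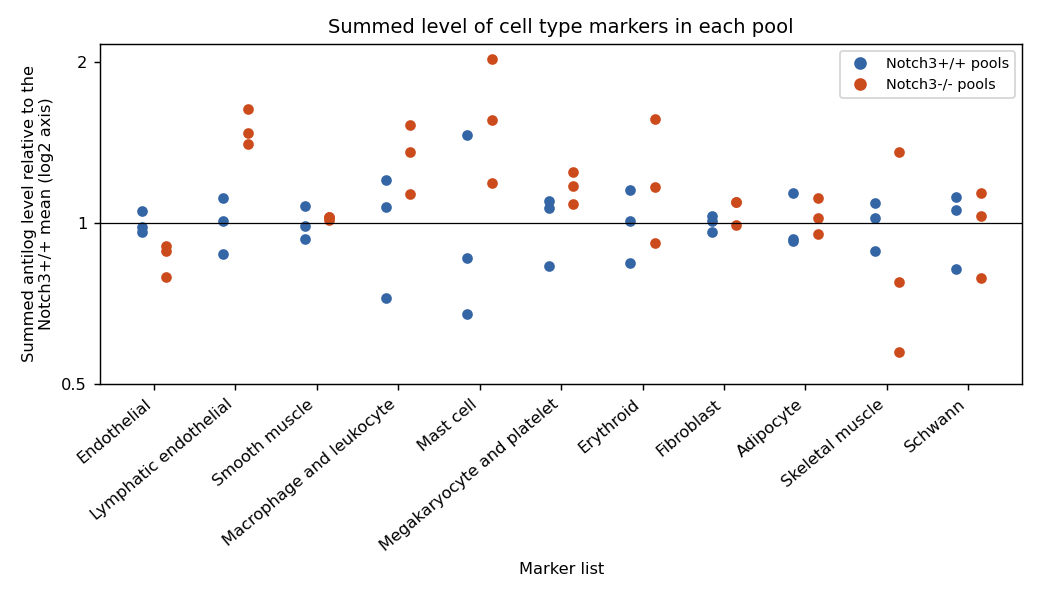
Summed antilog level of each marker list per pool, relative to the mean of the 3 Notch3+/+ pools, on a log2 axis; points are pools. The genotypes do not overlap for the list of 8 endothelial markers, lower in Notch3-/- pools, and the lymphatic list, higher in them, and the other lists plotted overlap. The sums of the 40 other endothelial genes, not plotted, overlap too (12544 to 13870 against 12951 to 14015).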

How the data were processed

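Arteries of 3 Notch3+/+ and 3 Notch3-/- pools were measured on Affymetrix MOE430 2.0 arrays. The authors deposited 1 log2 value for each probe set and array. The submitters' processing notes name RMA, a method that corrects background, normalizes by quantiles and summarises probes. Its version is not given in the sources used here. RMA compresses differences of dim probe sets, and detection calls were not used here. Depth has no meaning for arrays, and 3 arrays per genotype limit precision. The labels call the pools biological replicates.

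Of 45101 probe sets, 64 chip controls and those with a mean below the 40th percentile (3.83) were left out, which left 27027. Names came from the platform annotation, updated by gene number through RefSeq (GRCm38.p6). Genotypes were compared with limma 3.58.1 in R 4.3.3 (lmFit, eBayes, genotype as the only term), two-sided, with Benjamini-Hochberg adjustment over the 27027 probe sets. Intervals are 95%, unadjusted. The fit was tested on simulated data. The genes, roles and lists were chosen with earlier results of these data known, so no test over a list was made. Every one of the 42 genes may be named, and at most 4 others per list, by smallest p. Alternatives varied the filter, variance model, normalization, probe sets, threshold, replicate block and arrays.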

Additional observations from a re-analysis of the deposited data

How the results depend on the processing

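No endothelial gene was called under 13 of the 16 alternatives, the omission of each array included. With array weights 3 were called, Pdpn (0.65, adjusted p = 0.00581), Mmrn1 (0.89, adjusted p = 0.0311) and Vcam1 (0.49, adjusted p = 0.0411), beside 465 genes in all against 41. The weights ran from 0.29 for Notch3-/- replicate 2 to 3.04 for Notch3-/- replicate 3. Notch3+/+ replicate 2 had 2.94 and the remaining arrays 0.841 or less, so this fit leaned on few arrays. With an array left out, the adjusted p in limma was 0.0623 to 0.381 for Pdpn, 0.132 to 0.736 for Mmrn1 and 0.201 to 0.484 for Vcam1. With the mean of all probe sets of a gene, 1 was called (Pdpn, adjusted p = 0.0321), beside 61 genes. Pdpn has 1 probe set, so its values and its change of 0.61 stayed the same. That fit was adjusted over genes rather than probe sets. At an adjusted p under 0.10, 1 was called (Pdpn), beside 79 genes. Genes called in all were 9 to 36 when an array was left out, fewest without Notch3+/+ replicate 2. The median change of the general endothelial genes was -0.08 with array weights, and -0.11 (without Notch3-/- replicate 1) to -0.01 (without Notch3-/- replicate 3) with an array left out. The lymphatic median was 0.17 and the venous median -0.08 with the mean of all probe sets, and the ligand median 0.23 to 0.34 with an array left out. With the mean of all probe sets, 4 genes changed sign: Podxl (0.02), Clec14a (0.10), Sox7 (-0.07) and Selp (-0.08). Sign changes were counted where the change exceeded its standard error in the main fit or in the alternative. Of 572 changes of single genes under the alternatives, 564 kept their sign, or lay within a standard error of 0 on both sides, and their side of the threshold. The cause of these differences was not tested. With the replicate number as a block 0 endothelial genes and 36 genes in all were called, so the block changed no endothelial call. Same-numbered pools deviated together at r of 0.242, 0.046 and -0.067, and the labels give no pairing. Signal near background limits Prox1, Mmrn1 and Sele.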
